A study of Homo sapiens with 6 samples.

Results

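The tetraspanin genes were followed in WM164, an established human melanoma cell line, by RNA sequencing of 6 libraries. The members were taken by name: every protein-coding gene whose symbol is TSPAN followed by a number, together with CD9, CD37, CD53, CD63, CD81, CD82, CD151, UPK1A, UPK1B, PRPH2 and ROM1. This gave 33 of the 58870 genes in the count table, of which 19986 are protein-coding. The rule uses names and no expression value, although the family was picked for study with earlier results of these data known. A control group of 3 libraries came from cells overexpressing GFP, the green fluorescent protein. The other 3 libraries came from cells overexpressing T-MGM, a single protein in which the transcription factor MAFG is fused through a flexible linker to the melanocyte isoform of MITF. Both constructs were carried by lentivirus in the same parental line under a constitutive promoter, and transduced cells were selected with blasticidin, so drug selection and viral integration were common to both groups. One cell line was used, and the labels do not say whether the 3 libraries of a group came from separate cultures, so the p-values measure the spread between these libraries, which may be technical.

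Tetraspanins are small proteins that cross the membrane several times and carry a folded large extracellular loop held by disulphide bonds. They bind each other and a limited set of partners laterally, and in this way gather integrins, immunoglobulin-superfamily proteins and membrane proteases into tetraspanin-enriched membrane domains. CD63 travels between the plasma membrane, late endosomes and lysosome-related organelles, and in pigment cells it takes part in sorting the amyloid-forming protein PMEL inside early melanosomes. CD9, CD63 and CD81 are widely used markers of exosomes, the vesicles released when multivesicular bodies fuse with the cell surface. A subgroup with 8 cysteines in the large loop, called TspanC8, escorts the metalloprotease ADAM10 out of the endoplasmic reticulum and directs it to particular substrates. The comparison between T-MGM and GFP asks which of these genes differ in RNA when the tethered dimer is present.

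Total counts were 35057239 to 38738065 in the GFP libraries and 44577774 to 59250663 in those labelled T-MGM, so that 3 counts, the level treated here as the floor, stand for 0.0506 to 0.0856 CPM (counts scaled to the library total). Intervals and floors of counts cover counting error only where no replicate spread enters. The construct itself could not be checked from RNA: MAFG had 2458 ± 70.3 normalized counts in GFP against 2358 ± 34.9 in T-MGM (SD, n = 3 each; DESeq2 adjusted p = 0.236), and MITF had 19161 ± 46.9 and 20269.5 ± 165 (adjusted p = 4.80e-07). MAFG RNA was thus not higher in the libraries labelled T-MGM. MITF RNA, also part of the construct, was higher by a log2 change of 0.08, with every T-MGM library above every GFP library. The MAFG value goes against the label and the MITF value goes with it. Neither settles whether the construct was present, so the groups are named here by their labels only. Every direction given below is that of libraries labelled T-MGM against those labelled GFP. The 7 melanocyte marker genes were all detected, with a summed abundance of 1144 to 1168 TPM in GFP against 972 to 1009 TPM in libraries labelled T-MGM. PTPRC, the defining leukocyte gene, had no count in the GFP libraries and a mean of 0.65 normalized counts in those labelled T-MGM.

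In abundance the family was carried by CD63. On the deposited TPM scale, which corrects for transcript length and so allows genes to be compared, CD63 stood at 877, 919 and 908 TPM in the GFP libraries, the 67th most abundant protein-coding gene. In the libraries labelled T-MGM it stood at 791, 782 and 781 TPM. The 33 genes together summed to 1217, 1259 and 1256 TPM in GFP against to 1128, 1133 and 1111 TPM in T-MGM. CD63 alone made up 72.0, 73.0 and 72.3% of that sum in GFP against 70.1, 69.1 and 70.3% in T-MGM. Both the sum and the share were lower in every library labelled T-MGM than in every GFP library. TPM values share a fixed total, and the structural RNA RN7SL1 took 134141 to 138057 TPM in GFP against 158142 to 161371 TPM in T-MGM; its part in the lower sum was not tested.

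Below CD63 the levels dropped by 6.82-fold to TSPAN3, a broadly expressed member, at 132 ± 3.85 TPM in GFP (SD, n = 3). TSPAN14, a TspanC8 member, followed at 50.1 ± 2.21 TPM, then CD151 at 34.5 ± 0.078, CD81 at 30.7 ± 0.63 and TSPAN4 at 26.2 ± 0.62 TPM. CD82 stood at 14.2 ± 0.55 TPM. The GFP libraries of each of these 7 genes lay apart from those of the next gene in the order. TSPAN10 (10.03 TPM), TSPAN33 (9.34 TPM) and TSPAN17 (8.76 TPM) came next, each overlapping its neighbour in the order over the GFP libraries. TSPAN9, TSPAN31, TSPAN6 and TSPAN13, between 6.37 and 4.04 TPM, formed a second run of overlapping neighbours. TSPAN7 (3.12 TPM) and TSPAN15 (1.91 TPM) were the last of 16 members with a mean of at least 1 TPM in GFP. In the libraries labelled T-MGM the first 7 places were held by the same genes in the same order, but TSPAN10 (13.9 TPM) now overlapped CD82 (13.9 TPM) and stood clear of TSPAN17 (8.83 TPM). ROM1, at 1.51 TPM, passed TSPAN15, at 1.49 TPM, although those values overlapped.

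**Figure D1:**
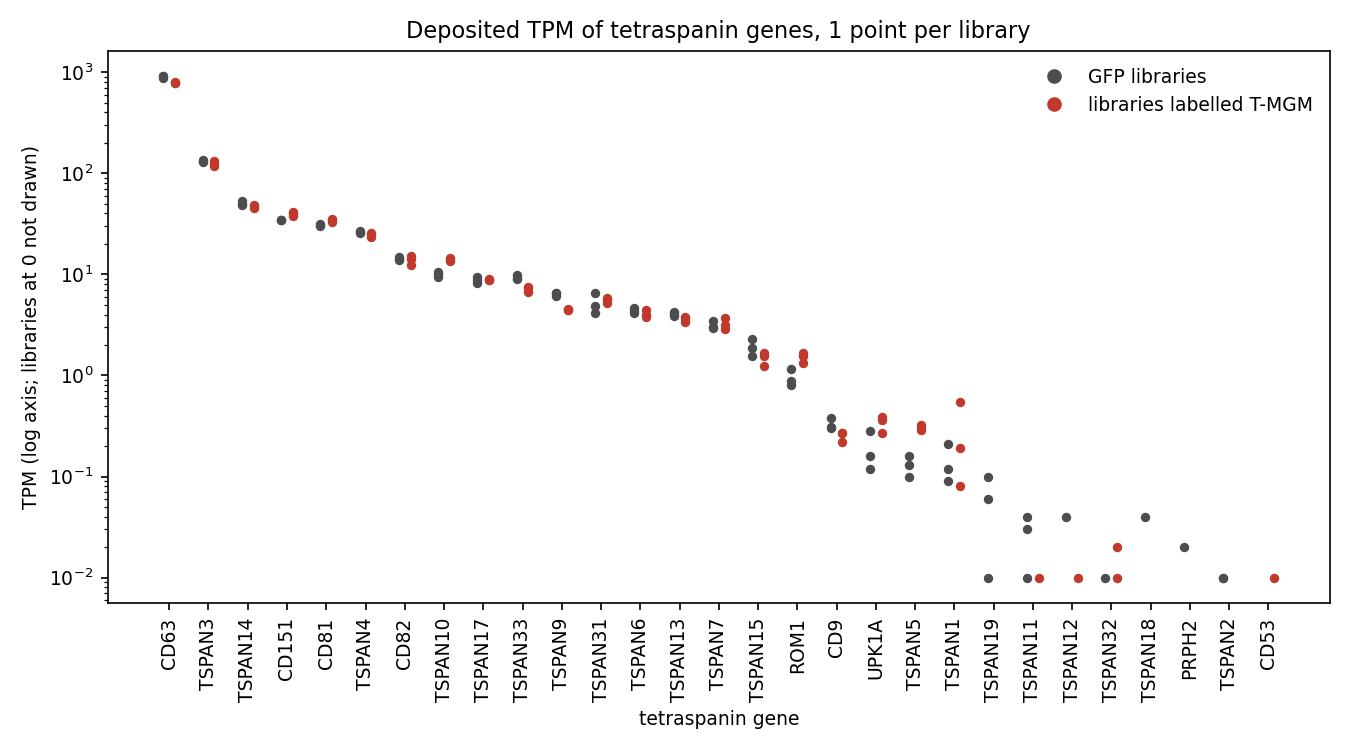
Deposited TPM (log axis) of the 29 tetraspanin genes with a count in at least 1 library, ordered by mean level, with 1 point for each GFP library (grey) and each library labelled T-MGM (red). CD63 stands above all other members, 6.82-fold above TSPAN3 in GFP, and libraries at 0 TPM are not drawn.

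Of the 33 members, 4 had no count in any library (CD37, UPK1B, TSPAN8 and TSPAN16), and 9 had at most 3 counts in every library. The test of T-MGM against GFP gave an adjusted p to 23 members, the others being too low to be tested. Of these 23, 8 were higher in T-MGM (TSPAN3, CD151, CD81, CD82, TSPAN10, TSPAN31, ROM1 and TSPAN5), 3 were lower (CD63, TSPAN9 and TSPAN19) and 12 did not pass at an adjusted p of 0.05. Among all 19135 genes tested, 38.4% passed, 19.2% in each direction, and among protein-coding genes 49.4% passed, so a share of 47.8% is close to that of protein-coding genes at large. Changes of more than 2-fold were found in TSPAN5, which was higher, and TSPAN19, which was lower, against 4.63% of all genes tested (3.26% higher and 1.36% lower). In 13 of the 23 members the libraries of one group all lay beyond those of the other, 9 above and 4 below, which held for 46.8% of all genes tested (23.4% in each direction). Of the 13917 protein-coding genes tested, 3962 lay above and 3943 below in this way, a larger share than among all genes. In bulk RNA a change in every cell and a change in the share of cells that express a gene cannot be told apart. The median log2 fold change was 0.09 over the 23 members and -0.0027 over all genes tested. With total counts in place of median-of-ratios factors, 6 members were higher and 5 lower.

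**Figure D2:**
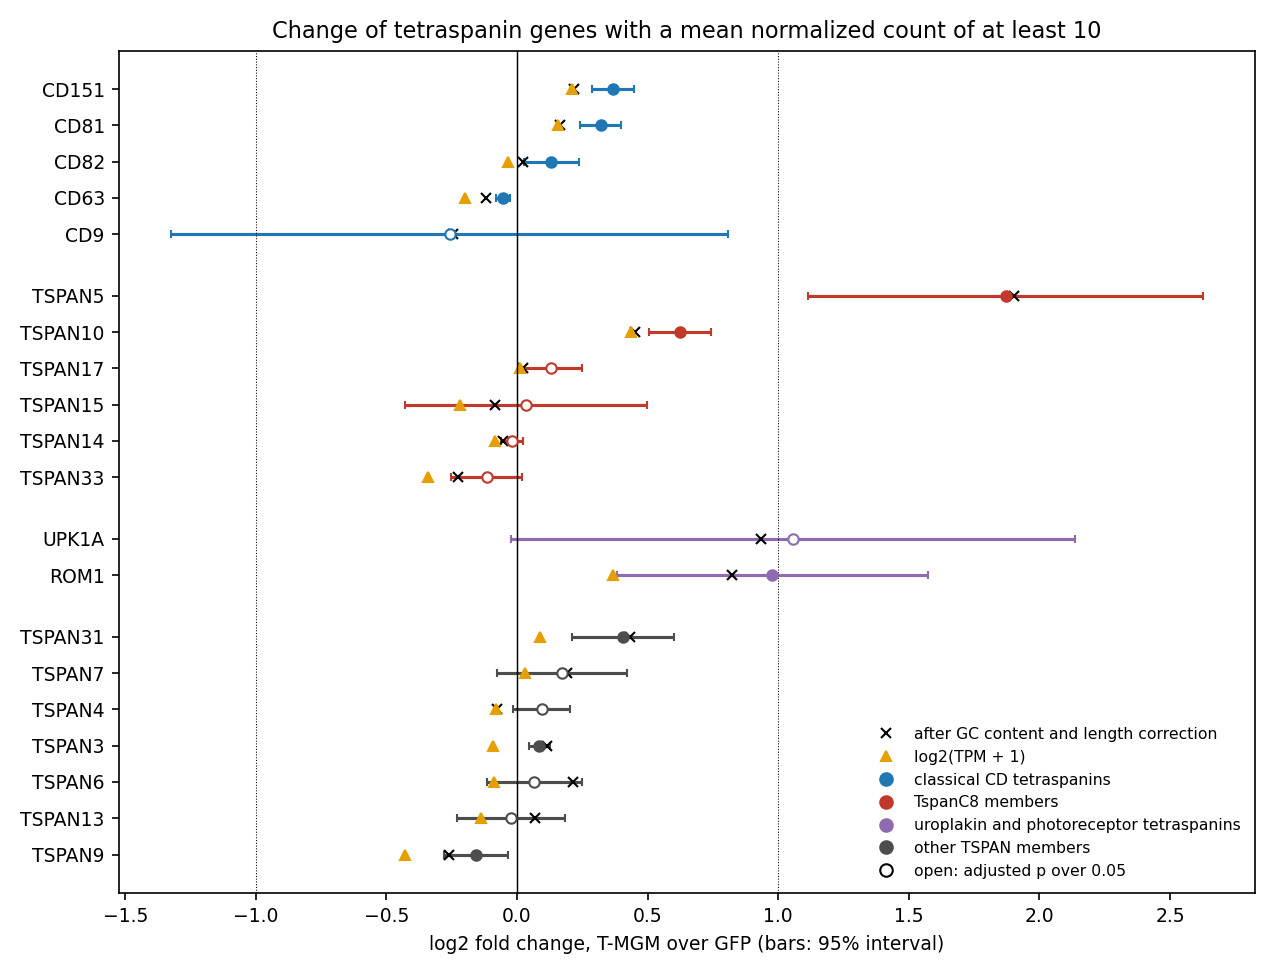
Log2 fold change of T-MGM over GFP with its 95% interval for the 20 members whose normalized counts averaged 10 or more, grouped by class; filled points passed an adjusted p of 0.05, crosses give the change after correction for GC content and transcript length, and triangles the change on log2(TPM + 1) where TPM reached 0.5 in 3 libraries. TSPAN5, at 1.87, lies farthest from 0, and most other changes lie between -0.5 and 0.5.

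Among the 5 classical CD tetraspanins, 3 were higher in T-MGM, CD63 was lower and CD9 did not pass, and all changes were small. CD151, which binds laminin-binding integrins tightly, had 2292, 2241 and 2251 normalized counts in GFP against 2930, 2769 and 3043 in T-MGM. Every T-MGM library lay above every GFP library, and the rise was 1.29-fold (95% interval 1.22 to 1.36; log2 0.37, SE 0.040, adjusted p = 1.06e-18). CD81, a partner of the immunoglobulin-superfamily proteins IGSF8 and PTGFRN, had 2084, 2018 and 1928 normalized counts in GFP against 2501, 2519 and 2510 in T-MGM. Its groups were apart as well, at 1.25-fold (95% interval 1.18 to 1.32; log2 0.32, SE 0.040, adjusted p = 2.18e-14). Both transcripts are rich in G and C (61.5% and 62.3% of the canonical transcript), and correction for GC content and length brought the log2 changes to 0.22 and 0.16, still past the threshold (adjusted p = 7.32e-07 and 0.000188). CD151, at chr11:832887-839831 on GRCh38, shares 6.6% of its exonic bases with POLR2L on the opposite strand, a gene that rose by a similar amount (log2 0.32).

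CD63 fell by a small and steady amount. Its normalized counts were 28728, 29364 and 29137 in GFP against 27777, 28099 and 28128 in T-MGM, with no overlap. The fold was 0.963 (95% interval 0.945 to 0.982; log2 -0.05, SE 0.014, adjusted p = 0.000463). It was lower in all 16 alternative analyses, between -0.20 and -0.04 on the log2 scale. The -0.20 was reached on log2(TPM + 1), where the median gene itself shifted by -0.13. CD82, a metastasis suppressor that restrains cell migration, had 1199, 1212 and 1239 normalized counts in GFP against 1379, 1335 and 1288 in T-MGM, a 1.10-fold rise (log2 0.13, SE 0.053, adjusted p = 0.0368). Its call did not survive the GC and length correction (log2 0.02, adjusted p = 0.815) or the omission of 5 of the 6 libraries in turn, and on TPM it turned to -0.04. CD9, the remaining exosome marker of this class, was nearly silent: 14, 11 and 15 raw counts in GFP against 11, 12 and 22 in T-MGM, or 0.31, 0.30 and 0.38 TPM against 0.22, 0.27 and 0.27 TPM. The normalized counts overlapped (log2 -0.26, SE 0.54, adjusted p = 0.773), and the 95% interval of 0.399- to 1.75-fold leaves changes of that size undetectable at this depth.

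All 6 TspanC8 members were measurable, and TSPAN5 and TSPAN10 were higher in T-MGM while the other 4 did not pass. TSPAN5, which directs ADAM10 towards Notch signalling, had 13, 19 and 7 raw counts in GFP against 60, 54 and 74 in T-MGM, or 15.6, 20.6 and 7.995 normalized counts against 54.7, 52.7 and 54.6. The T-MGM libraries were close together and all above the GFP libraries, which spread more. The rise was 3.66-fold (95% interval 2.17 to 6.18; log2 1.87, SE 0.39, adjusted p = 6.50e-06), and it ranged from log2 1.58 to 2.20 when single libraries were left out. The gene stayed at a low level, at 0.10, 0.13 and 0.16 TPM in GFP against 0.30, 0.32 and 0.29 TPM in T-MGM. GFP replicate 3 had the lowest count and the highest TPM of its group, so the deposited TPM is not a fixed multiple of the count. TSPAN5 lies at chr4:98470367-98658611, and the median of 42 expressed genes within 10 Mb was a log2 change of 0.04.

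TSPAN10, also called oculospanin and known from pigmented tissues of the eye, had the smallest adjusted p of the family. It had 863, 793 and 889 normalized counts in GFP against 1273, 1333 and 1310 in T-MGM. The groups were far apart for their spread, at 1.54-fold (95% interval 1.42 to 1.67; log2 0.62, SE 0.060, adjusted p = 1.32e-23). The transcript has the highest GC content of the family, 66.6%, and after correction for GC content and length the log2 change was 0.45 (adjusted p = 9.57e-13). It was 0.44 on log2(TPM + 1). In all 16 alternative analyses TSPAN10 kept its direction and its call. The gene lies at chr17:81637171-81648754, and 165 expressed genes within 10 Mb had a median log2 change of 0.10.

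**Figure D3:**
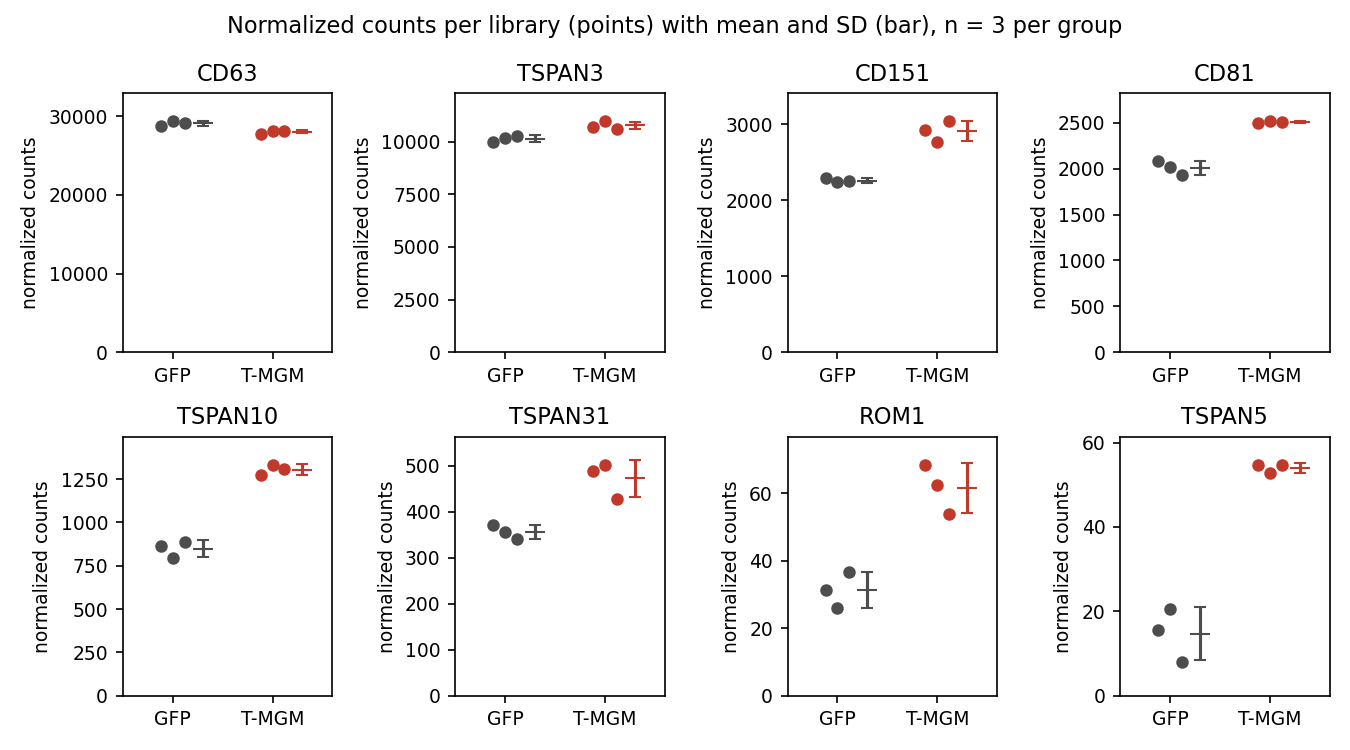
Normalized counts of 8 tetraspanin genes in each library, drawn from 0, with points for the 3 libraries of each group and a bar for their mean and SD. In all 8 genes the groups do not overlap: CD63 is the gene that is lower in T-MGM, at 27777 to 28128 against 28728 to 29364, and TSPAN5 has the highest ratio between groups, at 52.7 to 54.7 against 7.995 to 20.6.

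The remaining TspanC8 members, which likewise escort ADAM10, did not pass the threshold over all genes. TSPAN14, the most abundant of them, had 9434, 9475 and 9728 normalized counts in GFP against 9585, 9460 and 9224 in T-MGM (log2 -0.02, adjusted p = 0.549). TSPAN17 had a log2 change of 0.13 (adjusted p = 0.0762) and TSPAN15, which guides ADAM10 to N-cadherin, of 0.03 (adjusted p = 0.937). TSPAN33 had a log2 change of -0.12 (adjusted p = 0.189), and passed in 6 of 16 alternatives: with total counts (adjusted p = 0.0352), after GC and length correction (-0.23, adjusted p = 0.00338), in the 3 TPM analyses (-0.34 to -0.38, adjusted p = 0.00551 to 0.0156) and without T-MGM replicate 3 (adjusted p = 0.0480). Their 95% intervals in log2 were -0.06 to 0.02 for TSPAN14, 0.01 to 0.25 for TSPAN17, -0.43 to 0.50 for TSPAN15 and -0.25 to 0.02 for TSPAN33.

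Because T-MGM joins a basic helix-loop-helix factor to a basic leucine zipper factor, the promoter windows of the family in RefSeq (GRCh38.p14, 250 bases before to 50 after a transcript start) were searched on both strands for their textbook motifs. These were CACGTG, the palindromic E-box; CATGTG, the E-box variant found in the M-box of pigment genes; TGANTCA, the core shared by MAF and AP-1 sites; and the full palindromic MAF recognition element, which contains TGANTCA. Windows were at hand for 25 members, 45 windows in all; CD151, CD37, CD81, TSPAN3, TSPAN7, TSPAN9, TSPAN18 and TSPAN32 were not searched. CACGTG was present in 3 of the 45 (6.67%) and in 7.26% of all 35116 windows. CATGTG was present in 6 (13.3%) and in 11.1% of all windows, and TGANTCA in 3 (6.67%) and in 7.71%. The full palindrome was in none of the 35116 windows. Windows with both CATGTG and TGANTCA made up 1.25% of all windows and were found for 2 members, TSPAN10 and CD63, which moved in opposite directions. The stretches that hold the matches are shown because these genes are the rise with the smallest adjusted p and the most abundant member; matches are in capitals, CATGTG reads CACATG on the other strand, and both are written 5′ to 3′ along the gene's strand. A match is a description of letters and not of binding.
TSPAN10, chr17:81642105-81642252, plus strand: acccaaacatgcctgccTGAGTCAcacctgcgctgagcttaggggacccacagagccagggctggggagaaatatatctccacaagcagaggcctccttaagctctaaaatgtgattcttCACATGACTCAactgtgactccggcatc
CD63, chr12:55729089-55729206, minus strand: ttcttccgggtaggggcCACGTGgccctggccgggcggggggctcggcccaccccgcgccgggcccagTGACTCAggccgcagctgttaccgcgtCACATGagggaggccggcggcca
The TSPAN10 stretch lies before a start site at position 81642305, inside the annotated span of the gene, and ends in a run in which CACATG and TGACTCA overlap. The CD63 stretch lies before the start at position 55729009, inside the annotated span of CD63. CD63 shares 5.0% of its exonic bases with the antisense gene CD63-AS1, whose own counts did not pass (log2 0.09, adjusted p = 0.645). No window of TSPAN5 held any of these motifs.

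Of the photoreceptor tetraspanins, ROM1, which shapes the outer-segment discs of photoreceptors together with PRPH2, was higher in T-MGM at a low level. It had 31.2, 26.0 and 36.6 normalized counts in GFP against 68.4, 62.4 and 53.9 in T-MGM, without overlap, a 1.97-fold rise (95% interval 1.304 to 2.98; log2 0.98, SE 0.30, adjusted p = 0.00435). ROM1, at chr11:62611722-62615116, shares 30.1% of its exonic bases with EML3 on the opposite strand. EML3 had 1510 ± 75.3 normalized counts in GFP against 1771 ± 120 in T-MGM (log2 0.23, adjusted p = 0.000101); whether its reads entered the ROM1 counts was not tested, since the sources name both a stranded and an unstranded library kit. The call for ROM1 was kept in 15 of 16 alternatives, at log2 changes of 0.37 to 1.11 over all 16. It was lost on log2(TPM + 1) without a minimum level (adjusted p = 0.146). PRPH2 itself had 2 counts in one GFP library and none elsewhere. UPK1A, a plaque protein of the urothelium, had 7, 6 and 13 raw counts in GFP against 27, 16 and 29 in T-MGM. Its normalized counts, 6.496 to 14.8 against 15.6 to 24.6, did not overlap, yet the change did not pass (log2 1.06, SE 0.55, adjusted p = 0.124), with a 95% interval of 0.985- to 4.40-fold. Its usual partner UPK2 was at the floor in both groups, at 0.76 and 0.65 normalized counts.

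Of the other 15 TSPAN genes, 10 were tested, 2 being higher, 2 lower and 6 not passing. TSPAN31, a gene co-amplified with CDK4 in sarcomas, had 371, 356 and 342 normalized counts in GFP against 488, 502 and 427 in T-MGM. The groups lay apart, at 1.32-fold (95% interval 1.16 to 1.52; log2 0.41, adjusted p = 0.000224). It shares 26.1% of its exonic bases with CDK4 on the opposite strand, which changed by 0.12 on the log2 scale (adjusted p = 0.000194), and on log2(TPM + 1) the change of TSPAN31 was 0.09 and did not pass (adjusted p = 0.636). TSPAN3 had 9985, 10164 and 10287 normalized counts in GFP against 10711, 10969 and 10617 in T-MGM, a log2 rise of 0.08 (adjusted p = 0.000148). It was not past the threshold with total counts as size factors (adjusted p = 0.257) and turned to -0.09 on TPM, against a shift of the median gene of -0.13. TSPAN9, a platelet tetraspanin, had 1025, 965 and 1077 normalized counts in GFP against 902, 933 and 914 in T-MGM, a log2 change of -0.16 (adjusted p = 0.0322). The call for TSPAN9 was lost on leaving out any 1 library other than GFP replicate 2, and its log2 change was -0.26 after GC and length correction.

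TSPAN4, a building block of migrasomes, the vesicles left on retraction fibres, had 1572, 1423 and 1464 normalized counts in GFP against 1530, 1510 and 1711 in T-MGM (log2 0.09, adjusted p = 0.189). TSPAN6, TSPAN7 and TSPAN13 had log2 changes of 0.07, 0.17 and -0.02, with adjusted p-values of 0.652, 0.312 and 0.901. TSPAN7 shares 23.0% of its exonic bases with a read-through transcript. TSPAN1, an epithelial member, was scattered, with 3, 11 and 2 raw counts in GFP against 5, 12 and 28 in T-MGM (adjusted p = 0.333). TSPAN19 had 8, 1 and 6 raw counts in GFP against none in the 3 libraries labelled T-MGM, at least 2.28-fold lower against the floor of 3 counts in each library (adjusted p = 0.0100). The TSPAN19 value rests on 15 reads, and it kept its call without T-MGM replicate 1 or 2 but received no adjusted p without any other single library or with edgeR. TSPAN11 had 5, 5 and 2 counts against 0, 2 and 1 (adjusted p = 0.218).

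Members at or near 0 included the 3 leukocyte tetraspanins and several with known roles elsewhere. CD37 had no count, CD53 had 1 in a single T-MGM library, and TSPAN32 had at most 2 in any library. TSPAN12, the Norrin co-receptor of retinal vessels, had 4 counts in GFP replicate 1, 2 in T-MGM replicate 3 and none elsewhere. TSPAN2, TSPAN18 and PRPH2 had counts in GFP libraries only, of 1 or 2. Levels under 3 counts are under 0.0506 to 0.0856 CPM, so expression below that level was not detectable.

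The family is spread over 13 chromosomes, with 7 members on chromosome 11 and 7 on chromosome 12. CD151, CD81, CD82 and ROM1, all among the 8 members that rose, lie on chromosome 11. CD151 (chr11:832887-839831) and TSPAN4 (chr11:842812-867116) are next to each other, and their log2 changes were 0.37 and 0.09. Expressed genes within 10 Mb had a median log2 change of 0.11 around CD151, 0.11 around CD81, 0.19 around CD82 and 0.25 around ROM1. After GC and length correction these medians were 0.02, 0.02, 0.14 and 0.17. Each of these neighbour medians was positive, and its part in these rises was not tested.

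Genes of tetraspanin partners were read beside the family. Among 12 integrin genes, 7 were higher in T-MGM, 3 lower and 2 did not pass, with a median log2 change of 0.58, where 24.7% of protein-coding genes were higher and 24.7% lower. ITGA3, the integrin chain that CD151 binds most firmly, had 2726 ± 57.1 normalized counts in GFP against 7717 ± 100 in T-MGM (log2 1.502), while CD151 itself rose by 0.37. ITGB1, its beta chain, had 13674 ± 213 and 14015 ± 226 (log2 0.04, adjusted p = 0.129), and a log2 change of 0.17 after GC and length correction. ITGB5 (log2 0.68) and ITGA5 (log2 0.77), chains of vitronectin and fibronectin receptors, were higher as well. The 3 lower chains had small changes, and among them, chosen here after their values were seen, were ITGA6, another laminin-binding partner of CD151 (log2 -0.15, adjusted p = 1.32e-17), and ITGAV, the alpha chain that pairs with ITGB5 (log2 -0.15, adjusted p = 0.000930). After GC and length correction the log2 change was -0.06 for ITGA6 and 0.006 for ITGAV. For ITGA4, the remaining lower chain, it went from -0.12 to 0.03. Of 4 EWI genes, which encode the immunoglobulin-superfamily partners of CD9 and CD81, 2 were higher. IGSF3 had a log2 change of 1.43 and PTGFRN of 0.53, whereas IGSF8 had 0.06 (adjusted p = 0.387).

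On the TspanC8 side, ADAM10 had 6819 ± 33.2 normalized counts in GFP against 7071 ± 104 in T-MGM (log2 0.05, adjusted p = 0.0580). Its T-MGM libraries all lay above its GFP libraries, and its log2 change was 0.21 after GC and length correction. Among the 15 tested genes of the list of proteases and shed substrates, 5 were higher, 5 lower and 5 did not pass, with a median of 0.05. For this list and those below, 24.7% of protein-coding genes were higher and 24.7% lower. The hyaluronan receptor CD44 (log2 0.64) and the receptor tyrosine kinases AXL (log2 2.26) and MET (log2 0.52) were higher in T-MGM. The 5 lower genes were PCDHGC3 (log2 -0.42), NOTCH1 (-0.18), NOTCH2 (-0.07), APP (-0.08) and the N-cadherin gene CDH2 (-0.08). After GC and length correction CDH2 stood at -0.01. Of the Norrin receptor genes tested, the co-receptor LRP5 was higher (log2 0.40) and the receptor FZD4 had a log2 change of 0.04 (adjusted p = 0.842).

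Genes of exosomes and multivesicular bodies were divided, with 8 of 24 higher, 7 lower and 9 not passing, and a median of 0.09. SDCBP, encoding syntenin, which links CD63 to exosome budding, was lower at a log2 change of -0.30, and at -0.15 after GC and length correction. RAB31 (log2 1.37) and SYTL4 (log2 1.16), which act in vesicle sorting and docking, were higher. Of 13 genes for PMEL sorting in melanosomes, 4 were higher, 5 lower and 4 did not pass. PMEL had a log2 change of 0.05, MLANA, which binds PMEL, of -0.68, and APOE, a lipoprotein loaded onto melanosomal vesicles, of 0.70. After GC and length correction PMEL stood at -0.02, MLANA at -0.56 and APOE at 0.49. Of the L6 relatives, proteins of similar membrane layout outside the family, 2 of 3 tested were higher, TM4SF1 by a log2 change of 1.10. The partner lists were written with earlier results of these data known and were not matched in level to other genes, so their shares are descriptions only. Over all these partner lists 49 of the 75 genes tested passed (65.3%, against 38.4% of all genes and 49.4% of protein-coding genes), 29 higher and 20 lower. The split was 31 and 13 after GC and length correction, and 15 and 25 on log2(TPM + 1), whose median gene shifted by -0.13.

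**Figure D4:**
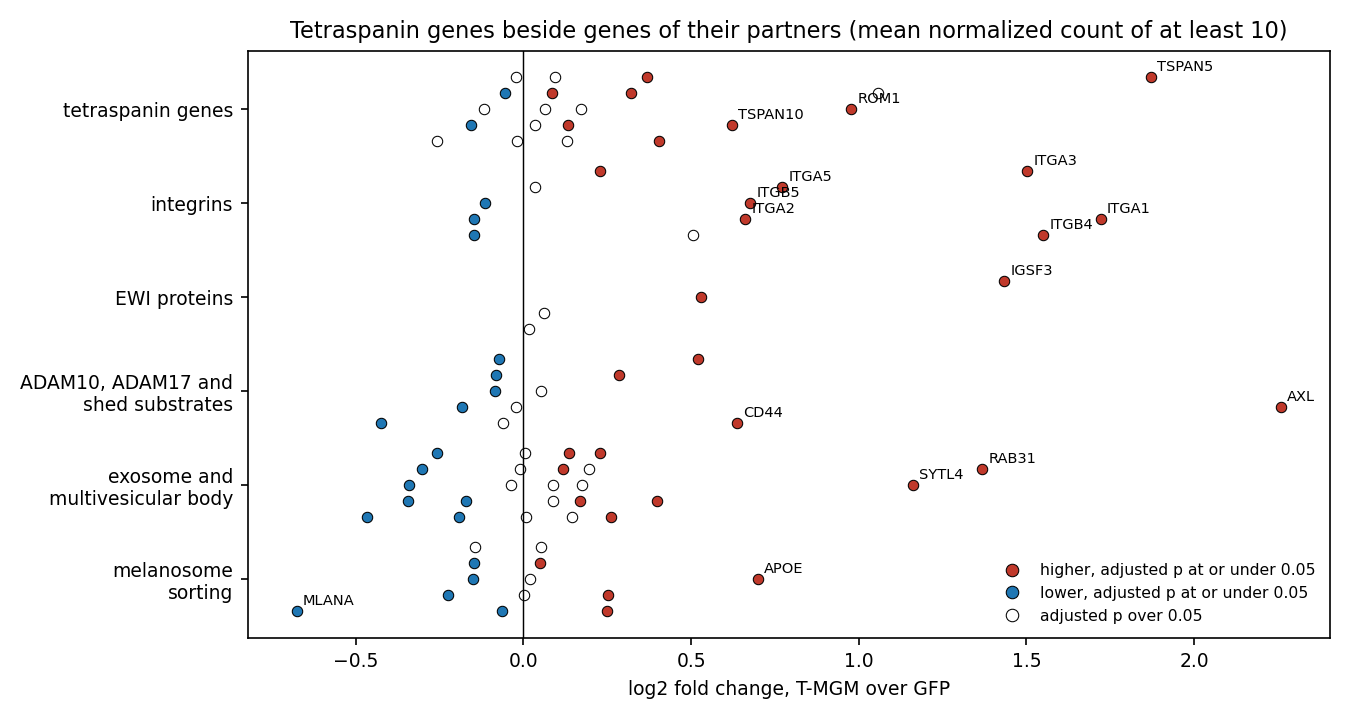
Log2 fold change of T-MGM over GFP for tetraspanin genes and for 5 lists of genes of their partners, 1 point per gene averaging 10 or more normalized counts, in red where higher and blue where lower at an adjusted p of 0.05 and white where not passing. Integrin genes reach further to the right than most tetraspanin genes, with ITGA3 at 1.502 against CD151 at 0.37.

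Markers of other cells were low apart from KRT10 and LUM. The summed level of 9 leukocyte markers was 0.97 to 1.31 TPM in GFP against 0.31 to 0.69 TPM in T-MGM, of which LYZ, at 71.8 ± 13.7 and 28.6 ± 8.95 normalized counts, was the gene that fell (log2 -1.32). Of 5 fibroblast markers, 4 were tested and LUM (log2 0.77), PDGFRB (log2 1.37) and COL1A1 (log2 1.23) were higher, with sums of 4.06 to 4.64 and 4.54 to 6.72 TPM, while DCN did not pass (adjusted p = 0.939). The 5 keratinocyte markers summed to 20.4 to 21.9 and 19.6 to 21.3 TPM, nearly all from KRT10 at 891 ± 42.7 and 954 ± 80.5 normalized counts (adjusted p = 0.292), while KRT5 averaged 0.38 and 1.06. The urothelial and photoreceptor markers, 6 genes, summed to 0.18 to 0.61 and 0.17 to 0.41 TPM, with overlapping ranges. Among 7 melanocyte markers 3 were higher and 4 lower, and DCT fell by 2.49 on the log2 scale. The 3 higher were MITF (log2 0.08), which is also part of the construct, SOX10 (0.11) and PMEL (0.05). After GC and length correction MITF stood at 0.19, SOX10 at -0.03 and PMEL at -0.02. The 4 lower markers stayed lower, with MLANA at -0.56, TYR at -0.30, DCT at -2.36 and S100B at -0.29. The part of these shifts in the tetraspanin values was not tested.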

How the data were processed

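Members and gene lists were chosen with earlier results of these data known. The labels give groups and replicate numbers. The authors trimmed reads with cutadapt 1.8.1, aligned them to GRCh38 with STAR 2.7.7a and counted uniquely aligned reads per gene. The deposited counts are whole numbers and not normalized. The deposited TPM values were made by the authors with RSEM 1.3.0 and rounded. The annotation release is not given in the sources used here, and labels and methods name different kits, without and with strand, so that overlapping genes are uncertain.

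Counts of all genes were fitted with DESeq2 1.42.0 in R 4.3.3 (the test the study's methods name): the group as the only term, median-of-ratios factors, a two-sided Wald test, unshrunken fold changes, Benjamini-Hochberg adjustment over all genes at 0.05 and independent filtering, which left out means under 2.518. Normalized counts are counts divided by size factors (0.834 to 1.355). Positions, overlaps, GC content and lengths are from GENCODE 44, which holds 99.3% of the identifiers. Neighbours are genes within 10 Mb with a mean of at least 50. Replicates were checked for duplicates and none was found.

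Alternatives were edgeR 4.0.16, TMM factors, total counts, at least 10 counts in 3 libraries, independent filtering switched off, a block for replicate number, lowess offsets for GC content and length, limma 3.58.1 on log2(TPM + 1) and log2(TPM + 0.1) with a TPM minimum of 0.5 or none, and each library left out. On simulated counts of 32338 genes for this comparison DESeq2 recovered 98% of 2-fold and 100% of 4-fold changes, and 30 unchanged genes passed. All changes were planted in genes averaging at least 100 normalized counts. Recovery at lower counts, where TSPAN5, ROM1 and TSPAN19 lie, was not tested.

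Full statistics are given for the 5 classical members and for those past the threshold with a mean of at least 10 and an absolute log2 change of at least 0.5; from each other list the first gene and up to 3 such genes are named.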

Additional observations from a re-analysis of the deposited data

How the results depend on the processing

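CD151, CD81, CD63 and TSPAN10 kept direction and call in all 16 alternatives, and TSPAN5 in the 14 that gave it a value. The 11 members that passed became 7 in each of the 3 TPM analyses (4 higher, 3 lower), 8 with the replicate block and 8 to 10 when single libraries were left out. The 2 members past 2-fold became 1 with edgeR, with at least 10 counts in 3 libraries, with the replicate block and with the GC and length correction, 1 to 2 when single libraries were left out (without GFP replicate 3 or T-MGM replicate 3 the second was ROM1, at log2 1.11 and 1.07, and not TSPAN19), and 0 in each TPM analysis with limma, where 0 also had an unadjusted p under 0.05 at that size. TSPAN19 received no adjusted p in most of these fits. The TPM analyses cannot decide whether TSPAN5 and TSPAN19 changed by more than 2-fold. Both lay under the TPM minimum in every library and were left out where it applied. Without the minimum, adding 1 to such low TPM values holds any change well under 2-fold, and TSPAN5 had a log2 change of 0.21. Partner genes past the threshold numbered 44 with the replicate block and 45 to 50 without single libraries.

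Same-numbered replicates did not deviate together (correlations of -0.002, -0.04 and 0.043 over 12654 genes, against -0.089 to 0.087 for unlike numbers). No pairing by number was seen, but so few libraries cannot settle whether the numbers pair the samples. Under the replicate block the calls lost were CD82 (adjusted p = 0.143) and TSPAN9 (adjusted p = 0.130), and TSPAN19 had no adjusted p.

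Directions turned in small changes only, given as log2 values. On log2(TPM + 1), log2(TPM + 0.1) and log2(TPM + 1) without a minimum, CD82 was -0.035, -0.038 and -0.035, TSPAN3 -0.091, -0.091 and -0.091, TSPAN4 -0.081, -0.084 and -0.081, TSPAN6 -0.088, -0.11 and -0.088, and TSPAN15 -0.22, -0.33 and -0.22. With the GC and length correction TSPAN4 was -0.078, TSPAN13 0.069 and TSPAN15 -0.083, and with total counts TSPAN15 was -0.019. Without single libraries TSPAN13 ranged from -0.062 to 0.028 and TSPAN15 from -0.11 to 0.23. The cause was not tested. TSPAN14 passed with total counts (adjusted p = 0.00380) and GC and length correction (adjusted p = 0.0304), TSPAN33 in the 6 alternatives given above, and TSPAN17 without T-MGM replicate 2 (adjusted p = 0.0408). Depth limits CD9, UPK1A, TSPAN1, TSPAN11 and the members at the floor.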
